A study of Homo sapiens with 4 samples.

Results

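Readthrough genes are annotated units in which transcription runs past the end of a gene and into its downstream neighbour on the same strand, so that exons of both are joined in 1 transcript. In the deposited gene table, a readthrough gene was taken as a symbol with exactly 1 hyphen whose parts before and after the hyphen are both genes of the table, which gave 150 of 28198 genes. The genes named by the 2 parts are called here the upstream and the downstream parent. There were 297 parents, because BLOC1S5, RAB4B and PRH1 each belonged to 2 readthrough genes. The table classed 92 of the readthrough genes as mRNA, 54 as lncRNA and 4 as miscellaneous RNA. The rule uses names only and no measured value.

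The libraries were made from MDA-MB-231 cells, a human triple-negative breast cancer cell line. Endogenous METTL3, the catalytic subunit of the RNA N6-methyladenosine writer, had been depleted by shRNA in all of them, and the cells were given back by lentivirus either wild-type METTL3 (METTL3 WT) or METTL3 K177Q, in which a glutamine stands in for an acetylated lysine. Cells of both genotypes were treated with cycloheximide, and their lysates were spread on a sucrose gradient from which a sub-polysome pool (40S, 60S and 80S) and a polysome pool were taken for poly(A)-selected sequencing. This gave 4 libraries, with 1 library per genotype and fraction, all carrying replicate number 2 in the labels, so no difference below has a replicate check and no test between conditions was possible.

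The total FPKM (fragments normalised to transcript length and to the fragments of the library) ranged from 767949 to 1037590. Depth was approximated here from genes with 1 transcript, as the median of FPKM times length in kb between 0.028 and 0.056, taken as 1 fragment. That gave about 23400000 to 26200000 fragments per library, but the preset window bounds the result, so the depth was not measured. If it held, a transcript of 1 kb at 1 FPKM would rest on about 23.4 to 26.2 fragments. Re-expressed and residual METTL3 together stood at 9.39 and 38.7 FPKM in the WT sub-polysome and polysome libraries and at 5.07 and 29.5 FPKM in the K177Q ones, which does not tell the 2 constructs apart. VIM, CD44, AXL and CAV1, genes of mesenchymal-like breast cancer cells, were all at 88.6 FPKM or more, ZEB1 was between 2.32 and 4.76 FPKM, and the hormone receptor genes ESR1 and PGR were at or near 0. The epithelial gene CDH1 was between 0.22 and 0.63 FPKM, whereas EPCAM was present at 6.20 to 9.91 FPKM.

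A readthrough transcript forms when cleavage and polyadenylation at the end of the upstream gene is bypassed and the splicing machinery joins an upstream exon to an exon of the gene beyond. Such transcripts may encode a fusion of the 2 proteins, may keep the reading frame of only 1 of them, or may carry an early stop codon that exposes them to nonsense-mediated decay. Where an exon is shared with a parent, short reads that do not cross a joining junction cannot be assigned to the readthrough transcript rather than the parent from sequence alone.

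A splice junction that joins an exon of each parent is found in neither parent, although a locus may have more than 1 such junction and may hold other bases of its own. The bases around 1 joining junction are shown for 8 loci on which the results below turn, read 5′ to 3′ along the transcript from the GRCh38 genome at junctions of GENCODE release 44. The last 15 bases of the upstream exon are in lower case and the first 15 bases of the downstream exon are in capitals.
PPAN-P2RY11: gggaaatggatcgagGTGCCAAGTCCTGCC
RPL36A-HNRNPH2: gataagaagagaaagCTACACCAAAATTGC
BLOC1S5-TXNDC5: caggaacgaaaaaagGTGTGGACACTGCCA
RBM14-RBM4: gtgacgtggtgaaagGCAAACGAATGCACG
BORCS8-MEF2B: tgcccagggccacagACAAAGATCATTCCA
URGCP-MRPS24: atgattttccaacagGTGCTGTCCTGGAGC
ISY1-RAB43: cagaaggctcctgggCTGCAGATCTGGGAC
HNRNPUL2-BSCL2: caatacaatcgggatGGACCCTCCATTTTC
The PPAN-P2RY11 junction spans chr19:10111022-10113633 on the plus strand, and that of RPL36A-HNRNPH2 spans chrX:101395457-101411936 on the plus strand. The junction of BLOC1S5-TXNDC5 lies at chr6:7904723-8026367 on the minus strand and that of RBM14-RBM4 at chr11:66617057-66643450 on the plus strand. BORCS8-MEF2B is joined across chr19:19150764-19182573, URGCP-MRPS24 across chr7:43869376-43881659, ISY1-RAB43 across chr3:129095169-129130088 and HNRNPUL2-BSCL2 across chr11:62707324-62715500, all on the minus strand. Each interval runs between the exonic bases that the junction joins.

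All 150 readthrough genes were in the RefSeq gene table (GRCh38.p14), and 148 of them overlapped both of their parents there. The name of BORCS7-ASMT points to ASMT, which RefSeq places on another chromosome (X, against 10 for BORCS7-ASMT), so its downstream parent under the naming rule is not its neighbour. The other exception was SLCO1B3-SLCO1B7, for which a parent had no position in the table. GENCODE 44 held 120 of the symbols and tagged all 120 as readthrough. Both parents were placed on the chromosome and strand of the readthrough gene in 135 of the 150 loci. The remaining 15 were BORCS7-ASMT and loci in which this was not known. Exon structures of all 3 genes of a locus were available for 119. In these the gap between the parents ranged from -105079 to 573553 bases, where a negative gap means that the parents overlap, as in PPAN-P2RY11 (-320).

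Over these 119 loci, a median of 33.6% of a readthrough gene's exonic bases lay in exons of the upstream parent and 53.6% in exons of the downstream parent, and a median of 3.98% lay in neither. In 35 of the 119 no exonic base lay outside the parents, and in 65 under 5% did, whereas in 7 over 50% did, up to 77.6%. A junction joining an exon of each parent was annotated for 111 loci, and 63 of these had exactly 1 such junction. Intron ends were read for 108 junctions, of which 106 were GT-AG and 2 were GC-AG, with a median intron of 16478 bases and a range from 679 to 176851. The coding sequence kept the reading frame of both parents in 53 loci and of the upstream parent alone in 16. It kept that of the downstream parent alone in 7 and of neither in 2, and 41 had no transcript of protein-coding type. Some of these 41 have transcripts annotated for nonsense-mediated decay, as BLOC1S5-TXNDC5 and INO80B-WBP1 do.

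The readthrough genes were a minor share of each library. Their summed FPKM made up 0.0419% to 0.0450% of the total in the 4 libraries. The mean over the 4 libraries was 10 FPKM or more for 12 readthrough genes, from 1 to 10 FPKM for 27, from 0.1 to 1 FPKM for 44, from 0.001 to 0.1 FPKM for 31 and under 0.001 FPKM for 36. A mean of 1 FPKM or more was required for the comparisons below, which kept 39 of the 150 (26%) and 10905 of all genes (38.7%). The lowest mean kept was 1.05 FPKM, for MSH5-SAPCD1, and the highest mean left out was 0.954 FPKM, for TGIF2-RAB5IF. By class, 26 of the 92 mRNA readthrough genes (28.3%, against 53.8% of all mRNAs), 13 of the 54 lncRNA ones (24.1%, against 7.88% of all lncRNAs) and 0 of the 4 miscellaneous RNAs passed. A gene can pass through 1 high library, so the 39 do not stand for all 150.

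BLOC1S5-TXNDC5, which joins a subunit of a complex that builds lysosome-related organelles to a protein disulfide isomerase of the endoplasmic reticulum, had the highest mean of the 150. It stood at 61.3 FPKM in the WT sub-polysome library, 51.5 in the WT polysome library, 77.6 in the K177Q sub-polysome library and 39.2 in the K177Q polysome library. Both sub-polysome values were above both polysome values. TXNDC5 ran the other way, from 11.2 to 42.2 FPKM between the WT fractions and from 16.8 to 63.4 FPKM between the K177Q fractions. BLOC1S5-TXNDC5 thus held 78.2% of the summed FPKM of its 3-gene locus in the WT sub-polysome library and 38.0% in the K177Q polysome library. None of its exonic bases lay outside the parents, and the table classed it as lncRNA.

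In 4 of the 39 loci the readthrough gene had a higher mean than either parent, and BLOC1S5-TXNDC5 was 1 of them. IPO11-LRRC70, which starts at a nuclear import receptor gene, stood at 10.4, 10.7, 7.15 and 9.05 FPKM (here and below in the order WT sub-polysome, WT polysome, K177Q sub-polysome, K177Q polysome) and held 81.6% to 97.7% of its locus. BOLA2-SMG1P6 was at 1.49, 2.13, 2.14 and 2.20 FPKM with BOLA2, an iron-sulphur cluster assembly factor, listed at 0 in all 4 libraries. Of its exonic bases 71.1% lay in neither parent. BOLA2 lies in a segmental duplication with near-identical copies, which makes the division of its reads uncertain. ARPIN-AP3S2, which joins an inhibitor of the Arp2/3 complex to an adaptor subunit, was at 2.32, 3.35, 2.36 and 2.71 FPKM and held 37.6% to 51.9% of its locus. Below 1 FPKM, BMS1P4-AGAP5 and SLX1A-SULT1A3 were also above both parents in mean, and both lie in duplicated sequence too.

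In most loci the parents were higher. The upstream parent was above the readthrough gene in 32 of the 39 loci and the downstream parent in 18 of 39. The readthrough gene held a median of 7.0% of the summed mean FPKM of the 3 genes, with under 1% in 6 loci, under 10% in 20 and under 50% in 36. In several loci with a low share the upstream parent was highly expressed. RPS10-NUDT3, which starts at the gene of a small ribosomal subunit protein, was at 48.3, 26.8, 63.4 and 21.6 FPKM, which was 0.444% to 1.01% of its locus. RPL17-C18orf32 was at 23.9, 14.5, 26.5 and 13.2 FPKM and held 1.05% to 1.58% of its locus. RNASEK-C17orf49, at 26.7, 8.26, 34.9 and 9.15 FPKM, held 0.516% to 1.68%. In all 3, both sub-polysome values lay above both polysome values. Ribosomal protein genes have many processed pseudogenes, and how the reads of RPS10, RPL17 and RPL36A were divided among copies is not given in the sources used here.

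**Figure D1:**
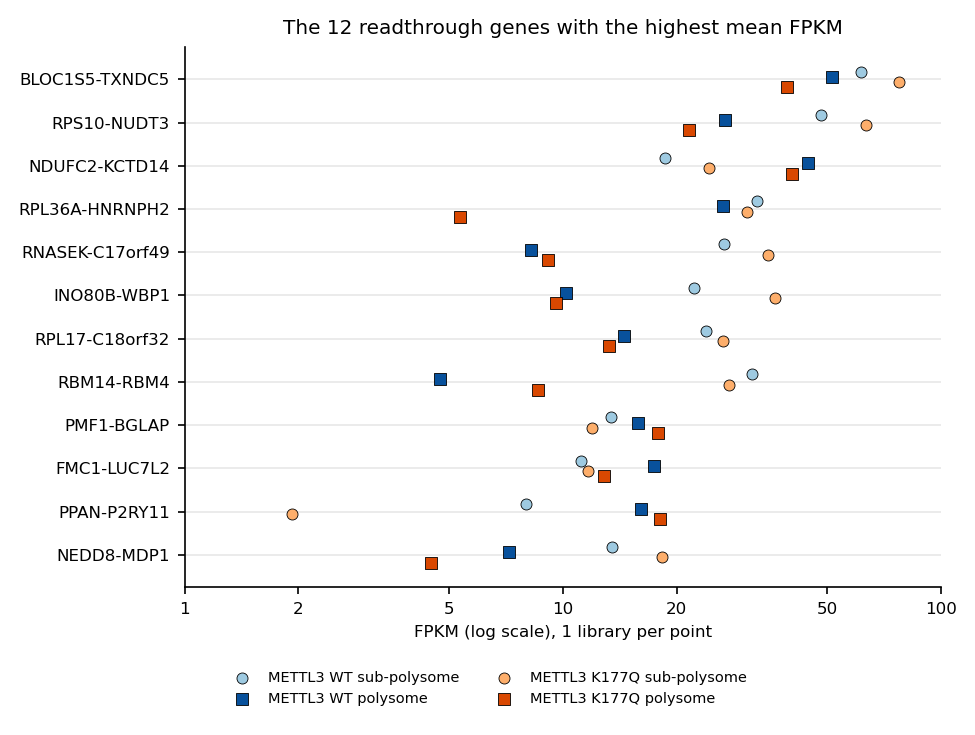
FPKM (log axis) of the 12 readthrough genes with the highest mean in each of the 4 libraries, with circles for sub-polysome and squares for polysome libraries and 1 library per point. RPL36A-HNRNPH2 has a single low point at 5.35 FPKM in the K177Q polysome library, and PPAN-P2RY11 a single low point at 1.92 FPKM in the K177Q sub-polysome library.

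The deposited values of readthrough genes were often positive but vanishingly small. Of their 600 values, 193 (32.2%) were above 0 and under 0.001 FPKM, whereas 309 of the 112192 values of other genes (0.275%) were. Exact zeros were less frequent than in other genes, with 62 of the 600 values (10.3%) against 43.7% of the values of other genes. At 0 in all 4 libraries at once were 10 of the 150 readthrough genes and 10586 of the 28048 other genes. Of the 1188 values of parents, 29 (2.44%) were above 0 and under 0.001 FPKM. By gene, 80 of the 150 readthrough genes had at least 1 such value, and 39 (26%) combined at least 1 such value with a value of 0.1 FPKM or more in another library, against 0.135% of the other genes. These 39 are a different set from the 39 that passed the minimum.

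In 11 readthrough genes a value above 0 and under 0.001 FPKM in 1 library stood beside a value of at least 1 FPKM in another. Only 15 genes of the whole table had such a pair, where pairs with an exact 0 are not counted. Apart from ISY1-RAB43 and HNRNPUL2-BSCL2, the genes of this group were picked out after their values were seen. TVP23C-CDRT4 was at 1.61e-04, 3.53, 2.38e-04 and 0.00144 FPKM, so that it stood above 1 FPKM in the WT polysome library alone. TNFSF12-TNFSF13, which joins the genes of the cytokines TWEAK and APRIL, was at 1.5, 2.54e-13, 3.39e-05 and 1.27 FPKM, which is high in opposite fractions of the 2 genotypes. FKBP1A-SDCBP2 was at 0.806, 0.824, 1.62 and 7.16e-43 FPKM and was near 0 in the K177Q polysome library alone. COMMD3-BMI1, whose downstream parent is a Polycomb gene, was at 0.218, 2.62, 4.15e-05 and 0.00247 FPKM. The others were ATP5MF-PTCD1, BCL2L2-PABPN1, C1QTNF3-AMACR, TM4SF19-TCTEX1D2 and TMED7-TICAM2, and no fraction or genotype was the low one throughout.

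**Figure D2:**
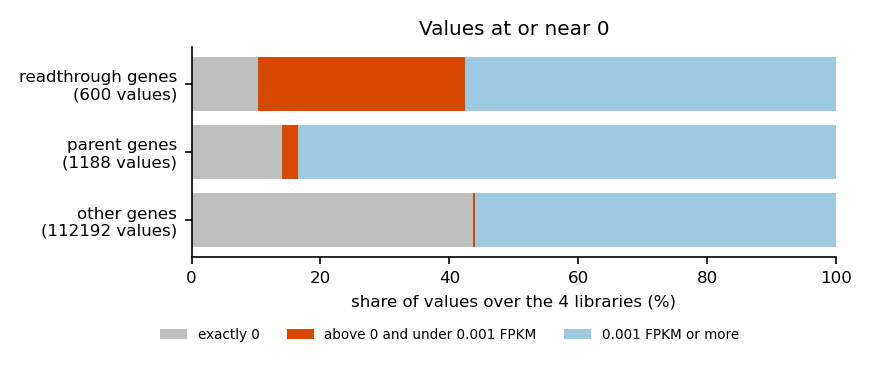
Share of all FPKM values over the 4 libraries (per cent, horizontal bars) that were exactly 0, above 0 but under 0.001, or 0.001 and more, for the 150 readthrough genes, their 297 parents and all genes other than readthrough genes. The middle category makes up 32.2% of the values of readthrough genes, 2.44% of those of parents and 0.275% of those of other genes.

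Translation efficiency was taken as the polysome FPKM over the sub-polysome FPKM, and the comparison the study was built for is its ratio between METTL3 K177Q and WT, given here as a difference of log2(FPKM + 0.1). Such values understate the change of low genes, and where a value is near 0 they depend on the pseudocount. Among the 39 readthrough genes, 10 had a higher translation efficiency in K177Q by 1.5-fold or more and 10 a lower one, which is 51.3% in either direction. Of all 10905 genes, 4.08% were higher by this rule, 7.03% lower and 11.1% past 1.5-fold in either direction. After rescaling each library to TPM (a fixed total of length-normalised values per library), which raised the median of all genes by 0.30, 17 of 44 readthrough genes were higher (18.6% of all genes) and 7 lower (2.83% of all genes). At a threshold of 2-fold on the deposited scale, 8 of the 39 were higher (0.77% of all genes) and 5 lower (1.9% of all genes).

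On the deposited scale the wide spread was not limited to low values. Of the 12 readthrough genes with a mean of 10 FPKM or more, 7 were past 1.5-fold, against 6.51% of all genes at that level. Of the 27 readthrough genes below it 13 were, against 15.6% of all genes with a mean under 10 FPKM. Of the 7, INO80B-WBP1, BLOC1S5-TXNDC5 and RPS10-NUDT3 were within 1.5-fold under TPM. PMF1-BGLAP, also of the 12, was then past it (0.63), as were 21.4% of all genes passing the minimum. The log2 ratios of the 39 ran from -2.78 to 2.88 with an SD of 1.20 across genes, and those of all genes had an SD of 0.455. The median of the 39 was -0.28 against -0.01 for all genes, and under TPM it was 0.03 against 0.29. The mRNA-class readthrough genes had 6 higher and 7 lower of 26, with a median of -0.40, which is 50% past 1.5-fold against 9.31% of all mRNAs. The lncRNA-class ones had 4 higher and 3 lower of 13, with a median of 0.01, which is 53.8% past 1.5-fold and close to the 50.6% of all lncRNAs.

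ISY1-RAB43 had the largest increase on the deposited scale with the pseudocount of 0.1. It joins the gene of a spliceosome component to that of a small GTPase, and it was at 0.603, 2.80, 2.31e-12 and 2.94 FPKM. The 2 polysome values differed little, and the log2 ratio of 2.88 came from the K177Q sub-polysome value near 0. It was 6.01 with a pseudocount of 0.01 and 0.73 with a pseudocount of 1, where URGCP-MRPS24 (1.86) and PPAN-P2RY11 (1.77) were above it, and under TPM URGCP-MRPS24 (3.13) also passed it (3.11). ISY1 ranged from 6.38 to 11.5 FPKM and RAB43 from 3.31 to 3.85 FPKM, with log2 ratios of -0.17 and -0.27.

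URGCP-MRPS24, which ends in the gene of a mitochondrial ribosomal protein, was at 4.80, 0.929, 0.483 and 0.787 FPKM, with a log2 ratio of 2.86. The WT sub-polysome library stood alone, and the other 3 values were all under 1 FPKM. Its share of the locus was 0.639% at the highest, because MRPS24 was at 623 to 764 FPKM. MRPS24 itself had a log2 ratio of -0.26.

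PPAN-P2RY11 had the third increase, with 7.98, 16.1, 1.92 and 18.1 FPKM and a log2 ratio of 2.16. PPAN is a ribosome biogenesis factor and P2RY11 a receptor for extracellular ATP, and the annotated coding sequence of 2382 bases keeps the frame of both. The polysome values were close, and the K177Q sub-polysome value was below all of the others. P2RY11 went the opposite way, at 4.72, 9.18, 7.15 and 4.54 FPKM with a log2 ratio of -1.59, and PPAN had a log2 ratio of -0.39. Only 5.22% of the exonic bases of PPAN-P2RY11 lay outside its parents.

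HNRNPUL2-BSCL2, which ends in the gene of the lipid droplet protein seipin, was at 2.22e-12, 1.56, 6.45e-17 and 5.00 FPKM. It was thus above 1 FPKM in both polysome libraries and near 0 in both sub-polysome libraries, and its log2 ratio of 1.62 rests on the polysome values alone. HNRNPUL2 was at 9.53 FPKM or more and BSCL2 at 44.3 FPKM or more in every library. MSH5-SAPCD1, from a meiotic recombination gene, was at 1.76, 1.49, 0.277 and 0.669 FPKM with a log2 ratio of 1.26, which was 0.54 and within 1.5-fold with a pseudocount of 1. BLOC1S1-RDH5 was at 2.71, 0.488, 1.28 and 0.568 FPKM with a log2 ratio of 1.21, while its downstream parent, the retinol dehydrogenase gene RDH5, was at 0.287 FPKM or less.

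RBM14-RBM4, which joins the genes of 2 RNA-binding proteins, was at 31.6, 4.74, 27.6 and 8.59 FPKM with a log2 ratio of 1.04. Its sub-polysome values were several times its polysome values in both genotypes, whereas RBM4 was at 26.4, 95.6, 30.7 and 89.8 FPKM, the reverse order. Its share of the locus accordingly went from 47.5% in the sub-polysome library to 4.21% in the polysome library of WT, and from 41.5% to 7.72% in K177Q. The share of its exonic bases in neither parent was 22.8%, against the median of 3.98% over all loci. The remaining higher readthrough genes, outside the rule for naming genes, were ARL2-SNX15 at 1.08, BUB1B-PAK6 at 0.99 and IQCJ-SCHIP1 at 0.60 on the log2 scale.

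The largest decrease was that of BORCS8-MEF2B, which runs from a lysosome positioning gene into a MADS-box transcription factor gene. It was at 0.475, 1.74, 3.03 and 1.36 FPKM, with a log2 ratio of -2.78. The polysome values were close, and the sub-polysome values set the ratio. BORCS8 and MEF2B had log2 ratios of -0.41 and -0.47.

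RPL36A-HNRNPH2 was at 32.7, 26.5, 30.7 and 5.35 FPKM with a log2 ratio of -2.20. Here 3 libraries were alike and the K177Q polysome library was low. HNRNPH2, a splicing regulator, was at 6.99, 23.7, 1.91 and 41.1 FPKM, which is a log2 ratio of 2.61, and it was highest in the library in which the readthrough gene was lowest. The ribosomal protein gene RPL36A, at between 793.9 and 2268 FPKM, had a log2 ratio of -0.77. No exonic base of RPL36A-HNRNPH2 lies outside its parents, and its coding sequence of 354 bases keeps the frame of RPL36A alone.

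TNFAIP8L2-SCNM1 was at 1.39, 1.49, 3.87 and 1.12 FPKM with a log2 ratio of -1.80, and SCNM1, a splicing factor gene, had a log2 ratio of -0.25. SAA2-SAA4, from the serum amyloid A cluster, was at 0.526, 5.69, 2.52 and 10.2 FPKM with a log2 ratio of -1.24, and SAA4 was at 7.77, 5.48, 7.65 and 0.736 FPKM with a log2 ratio of -2.72. SAA2-SAA4 was higher in the polysome library of both genotypes, and SAA2 is nearly identical to SAA1, so that the division of reads in this cluster is uncertain. NEDD8-MDP1, which starts at the gene of the ubiquitin-like protein NEDD8, was at 13.5, 7.22, 18.2 and 4.47 FPKM with a log2 ratio of -1.11. BORCS7-ASMT was at 0.707, 1.52, 1.55 and 1.57 FPKM with a log2 ratio of -0.98, and the WT sub-polysome value was the only low one. With a pseudocount of 1, SAA2-SAA4 (-0.47) and BORCS7-ASMT (-0.55) were within 1.5-fold.

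The other lower readthrough genes with a mean of 10 FPKM or more were INO80B-WBP1, BLOC1S5-TXNDC5 and RPS10-NUDT3. INO80B-WBP1, from a chromatin remodelling subunit gene, was at 22.2, 10.2, 36.5 and 9.57 FPKM with a log2 ratio of -0.81. BLOC1S5-TXNDC5 and RPS10-NUDT3 had log2 ratios of -0.73 and -0.70. Under TPM none of the 3 was past 1.5-fold, with log2 ratios of -0.51, -0.43 and -0.40. In all 3 the K177Q sub-polysome library was the highest and the K177Q polysome library the lowest of the 4. ZHX1-C8orf76, outside the naming rule, completed the 10 lower genes at -0.70. Of the remaining genes with a mean of 10 FPKM or more, NDUFC2-KCTD14, from a respiratory complex I subunit gene, was at 18.6, 44.6, 24.4 and 40.4 FPKM and FMC1-LUC7L2 at 11.2, 17.4, 11.6 and 12.8 FPKM, with log2 ratios of -0.53 and -0.49. PMF1-BGLAP, which joins a kinetochore gene to the osteocalcin gene, was at 13.4, 15.8, 12 and 17.9 FPKM with a log2 ratio of 0.34.

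The sum of the readthrough gene and both parents does not depend on how shared reads are divided among the 3, apart from the division of FPKM by transcript length. Since the readthrough gene made up a median of 7.0% of it, the sum mostly follows the parents and would vary less whatever the readthrough transcript did. None of the 39 sums was higher in K177Q by 1.5-fold or more and 7 were lower, with a median of -0.24, a range from -0.83 to 0.30 and an SD of 0.278. After rescaling to TPM, 1 sum was higher and 0 were lower. In 31 of the 39 loci the sum was closer to 0 than the readthrough gene.

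Of the 20 readthrough genes past 1.5-fold, 17 had a sum within 1.5-fold. The exceptions were RPL36A-HNRNPH2 and SAA2-SAA4, whose sums of -0.74 and -0.70 had the direction of the readthrough gene, and MSH5-SAPCD1, whose sum of -0.64 had the opposite direction. In RPL36A-HNRNPH2 and SAA2-SAA4 the upstream parents made up most of the sum and had log2 ratios of -0.77 and -0.70. The sum was -0.10 for ISY1-RAB43, -0.24 for URGCP-MRPS24, -0.22 for PPAN-P2RY11, -0.04 for HNRNPUL2-BSCL2, -0.01 for RBM14-RBM4 and -0.53 for BORCS8-MEF2B. Adding only the upstream parent left 3 higher and 8 lower of 39, and adding only the downstream parent left 1 higher and 4 lower. Of all genes 4.08% were higher and 7.03% lower. The 2 partial sums were added after the values were seen. For RPL36A-HNRNPH2 the sum with HNRNPH2 alone was 0.17.

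**Figure D3:**
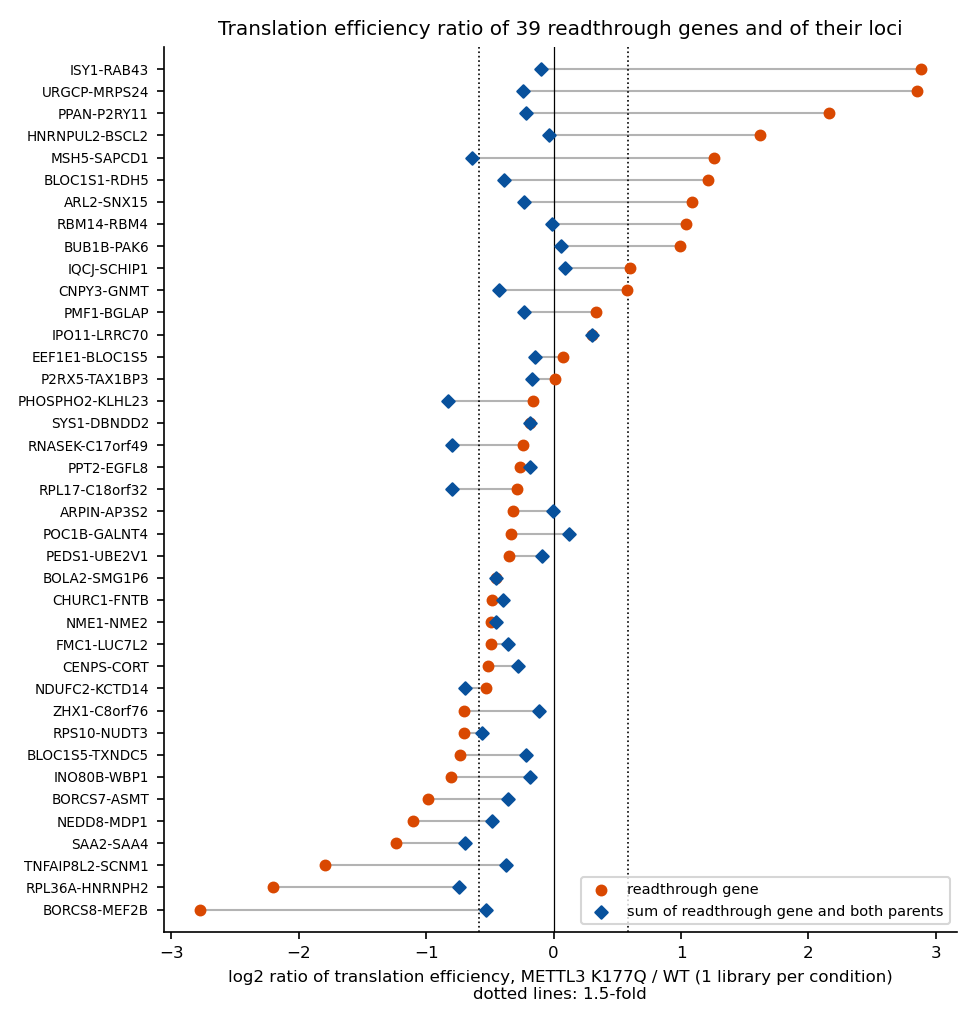
Log2 ratio of translation efficiency, METTL3 K177Q over WT (x axis), for the 39 readthrough genes with a mean of 1 FPKM or more (circles) and for the sum of each with its 2 parents (diamonds), 1 library per condition, with dotted lines at 1.5-fold. The circles run from -2.78 to 2.88 and the diamonds from -0.83 to 0.30.

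The parents were next compared singly. The upstream parent had a mean of at least 1 FPKM in 36 of the 39 loci and the downstream parent in 27. The log2 ratio of the readthrough gene had the opposite sign to that of the upstream parent in 13 of 36 loci and to that of the downstream parent in 14 of 27. Pearson's r across loci was 0.25 with the upstream parent (36 loci) and -0.20 with the downstream parent (27 loci). The points of both share the same 4 libraries and the reads of common exons, and loci are not independent replicates. The readthrough gene and its downstream parent were past 1.5-fold in opposite directions in 3 loci and in the same direction in 1, and with the upstream parent in 2 and 2. Over all 192 parents with a mean of 1 FPKM or more, 13 were higher by 1.5-fold or more and 35 lower, a combined 25% against 11.1% of all genes. Under TPM 33 of 193 parents were higher and 15 lower, where 18.6% and 2.83% of all genes were. The share higher was then no greater than that of all genes, while the share lower stayed above it.

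**Figure D4:**
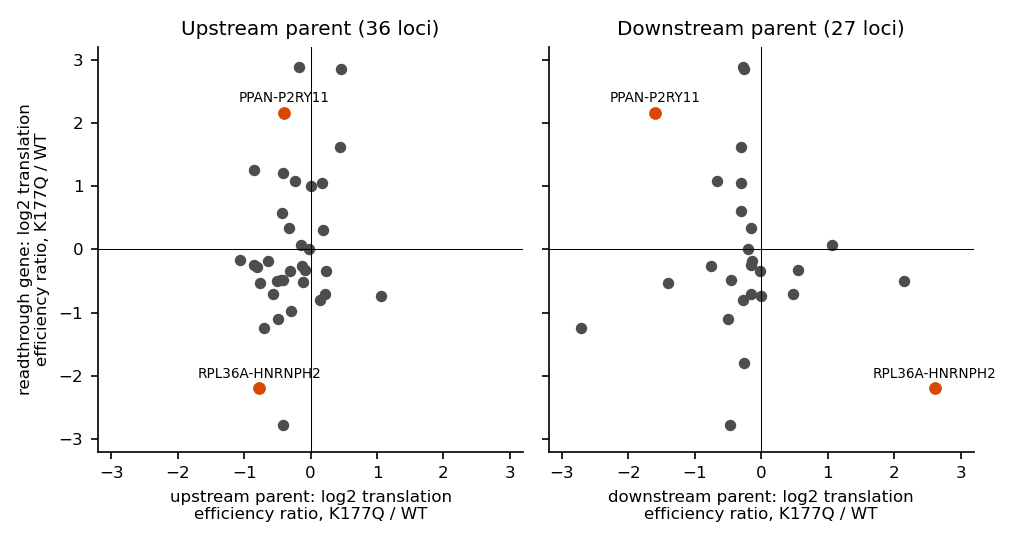
Log2 ratio of translation efficiency, METTL3 K177Q over WT, of the readthrough gene (y axis) against that of its upstream parent (left, 36 loci) and its downstream parent (right, 27 loci), 1 point per locus with a parent mean of at least 1 FPKM. PPAN-P2RY11 and RPL36A-HNRNPH2 lie in opposite corners of the right panel, each with a sign opposite to its downstream parent, at -1.59 and 2.61. Both loci were marked because they were known from earlier results of these data, and Pearson's r without them was not computed.

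Each fraction was also compared alone. Between the polysome libraries, 5 of the 39 readthrough genes were higher in K177Q by 1.5-fold or more and 5 lower, which is 25.6% in either direction. Of all genes 2.13% were higher and 3.13% lower, or 5.25% in either direction. Between the sub-polysome libraries, 6 were higher and 5 lower, which is 28.2% in either direction. Of all genes 4.01% were higher and 2.94% lower, or 6.95% in either direction. The sums of 3 genes gave 0 higher and 1 lower in the polysome libraries and 1 higher and 0 lower in the sub-polysome libraries.

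Within a genotype, the log2 ratios of polysome over sub-polysome had an SD across readthrough genes of 1.42 in WT and 1.77 in K177Q, against 0.875 and 0.998 across all genes. In WT, 11 of 39 were higher in the polysome library by 1.5-fold or more and 12 lower (59.0% in either direction), against 28.1% and 19.1% of all genes (47.3% in either direction). In K177Q, 13 were higher and 15 lower (71.8% in either direction), against 30.2% and 21.3% of all genes (51.5% in either direction). The median log2 ratio of polysome over sub-polysome was 0.04 in WT and 0.02 in K177Q, where all genes had 0.14 and 0.16, and the medians of the readthrough genes were -0.07 and -0.10 with size factors. The ratios of WT and K177Q had opposite signs in 8 of 39 readthrough genes (20.5%) and in 12.3% of all genes.

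The lncRNA-class readthrough genes sat higher in this ratio than lncRNAs as a whole. Their median was -0.23 in WT and 0.02 in K177Q (n = 13 genes). The 405 lncRNAs with a mean of 1 FPKM or more, these 13 included, had medians of -1.48 and -1.88. The mRNA-class readthrough genes had medians of 0.21 and 0.01 (n = 26 genes), against 0.18 and 0.21 for all mRNAs. The lncRNA-class readthrough genes share exons with their parents, and the part of shared reads in this difference was not tested.

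**Figure D5:**
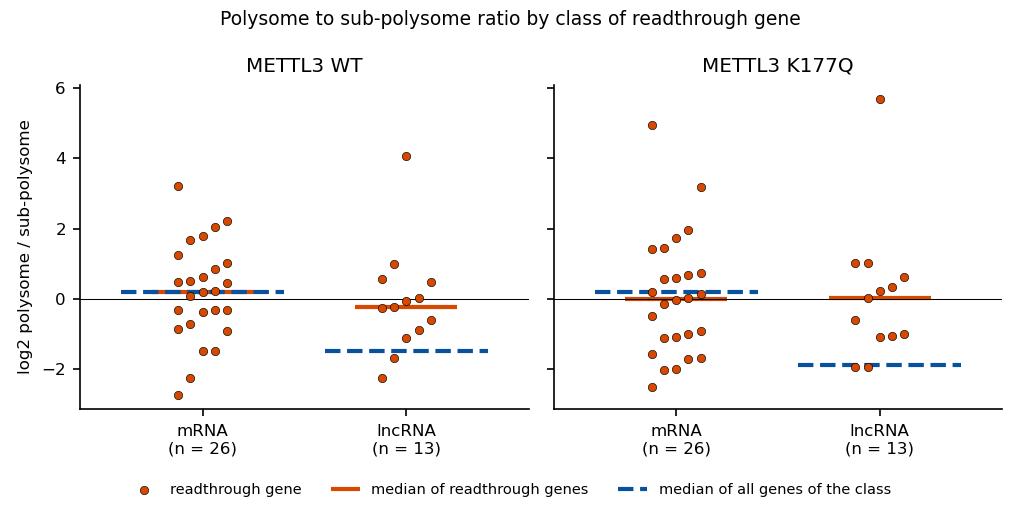
Log2 ratio of polysome over sub-polysome FPKM (y axis) in METTL3 WT (left) and K177Q (right), 1 library per fraction and genotype. Points are the 26 mRNA-class and 13 lncRNA-class readthrough genes, with solid bars at their medians. Dashed bars are medians of all genes of the class with a mean of at least 1 FPKM, readthrough genes included. The lncRNA-class readthrough genes have medians of -0.23 and 0.02, above the -1.48 and -1.88 of all lncRNAs.

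The structure of the locus was set beside these values. Of the 33 readthrough genes with a mean of 1 FPKM or more and known exon structures, 22 had under 5% of their exonic bases outside the parents, and 11 of these 22 were past 1.5-fold in translation efficiency. Of the 11 with at least 5% outside, 6 were. The median size of the log2 ratio was 0.62 in the former and 0.60 in the latter. By reading frame, 6 of 13 that kept the frame of both parents were past 1.5-fold and 3 of 7 that kept the upstream frame. So were 2 of 2 that kept the downstream frame and 6 of 10 with no transcript of protein-coding type. These counts are too small to order the groups.

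Genes of the cleavage and polyadenylation machinery, whose products end transcripts at the upstream gene, were set beside them. Of 23 such genes, 22 had a mean of at least 1 FPKM, 0 were at least 1.5-fold higher in translation efficiency and 1 was lower (4.08% and 7.03% of all genes), with a median log2 ratio of 0.07. Under TPM 7 of 22 were higher and 0 lower (18.6% and 2.83% of all genes). The lower gene was RBBP6, at 5.20, 4.72, 5.58 and 3.09 FPKM with a log2 ratio of -0.69. PCF11, which ties termination to cleavage, was the gene below the minimum, at 0.384 to 0.740 FPKM. At the other end of the list, CSTF2, a subunit of the cleavage stimulation factor, had a log2 ratio of 0.44.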

How the data were processed

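Per the labels and the study's methods, poly(A)-selected, strand-specific libraries from pooled gradient fractions were sequenced, and the submitters' processing notes name STAR 2.7, StringTie 2.1.5 and hg38. The annotation is not given in the sources used here. The authors deposited FPKM values per gene, 1 column per library. A further 4 columns, whose names carry replicate number 1 and belong to no sample in the labels, were not analysed here, so 1 library per condition remained and no test was run.

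Values were compared as log2(FPKM + 0.1) with genes of mean 1 FPKM or more over 4 libraries, and called at 1.5-fold. Genes named were the 12 highest in mean, the 6 largest increases and 6 largest decreases, those above both parents, PPAN-P2RY11 and RPL36A-HNRNPH2. Members and lists were chosen with earlier results of these data known. Sequences and exons came from GRCh38 with GENCODE 44, and positions from RefSeq (GRCh38.p14). Depth was approximated from low values inside a preset window, which bounds the result. Python 3.11.15, pandas 2.3.3 and numpy 2.4.6 were used, and the scripts were tested on simulated data. Alternatives were another pseudocount, minimum, scaling, threshold and sums with parents.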

Additional observations from a re-analysis of the deposited data

Results flagged for a closer look

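In BORCS8-MEF2B and URGCP-MRPS24 the fractions differed in opposite directions in the 2 genotypes. BORCS8-MEF2B had a log2 ratio of polysome over sub-polysome of 1.68 in WT and -1.10 in K177Q, which gives the translation efficiency ratio of -2.78. URGCP-MRPS24 had -2.25 in WT and 0.60 in K177Q, which gives 2.86. With 1 library per condition neither difference was tested. The sums of the 3 genes of each locus were -0.53 and -0.24.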

How the results depend on the processing

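No paired analysis was possible because the 4 libraries share 1 replicate number and each condition has 1 library. With 39 readthrough genes, 10 were higher and 10 lower (4.08% and 7.03% of all genes). Without a minimum (150 genes) 36 were higher and 36 lower, with a median log2 translation efficiency ratio of 0.00. At a minimum mean of 5 FPKM 3 of 17 were higher and 5 lower, with a median of -0.49. The polysome medians were then -0.25 in WT and -0.98 in K177Q. The shares of all genes without a minimum and at 5 FPKM were not computed, so these counts have no comparison. With TPM 17 were higher, and the medians were 0.034, 0.20 and 0.45. Size factors gave polysome medians of -0.072 and -0.10. At 2-fold 5 were lower. Sums of 3 genes gave 0 higher and polysome medians of 0.18 and -0.26. The sums that follow were added once the values were known. With the upstream parent 3 were higher, with polysome medians of 0.20 and -0.28, and with the downstream parent 1 was higher and 4 lower. The length-weighted sum gave 0 higher and 5 lower, with a K177Q polysome median of -0.12. The sum in TPM gave 1 higher and 0 lower, with medians of 0.062, 0.32 and 0.17.

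Among values past 1.5-fold, the sign turned in the 3-gene sum for BLOC1S1-RDH5 (-0.39), HNRNPUL2-BSCL2 (-0.036), ISY1-RAB43 (-0.10), MSH5-SAPCD1 (-0.64), PPAN-P2RY11 (-0.22), RBM14-RBM4 (-0.011) and URGCP-MRPS24 (-0.24). It turned with the upstream parent for BLOC1S1-RDH5 (-0.39), MSH5-SAPCD1 (-0.28) and PPAN-P2RY11 (-0.054). It turned with the downstream parent for HNRNPUL2-BSCL2 (-0.19), MSH5-SAPCD1 (-0.43), RBM14-RBM4 (-0.035), RPL36A-HNRNPH2 (0.17) and URGCP-MRPS24 (-0.25). It turned with length weighting for ISY1-RAB43 (-0.077), MSH5-SAPCD1 (-0.31), PPAN-P2RY11 (-0.17) and URGCP-MRPS24 (-0.19). Among values within 1.5-fold, or of genes under the minimum, it also turned for PMF1-BGLAP (-0.23 in the 3-gene sum, -0.23 with the upstream parent, -0.24 with length weighting), ARPIN-AP3S2 (0.030 with the downstream parent, 0.086 with length weighting), BMS1P4-AGAP5 (0.145 with the downstream parent, 0.078 with a pseudocount of 1) and, under TPM, RNASEK-C17orf49 (0.056) and RPL17-C18orf32 (0.012). The cause was not tested. Of 243 values for named genes under all alternatives, 28 turned, 104 moved by 0.1 or more with the same sign and 111 moved by less.

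That 1 library per condition was analysed limits every value, and the FPKM values carry no fragment counts, so no counting interval is given.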
